A study of Mus musculus with 23 samples.

Results

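PU.1 and the C/EBP proteins are transcription factors of the myeloid lineage, and the 7 genes examined here encode PU.1 (Spi1), its close relative SPI-B (Spib), and C/EBPα, β, δ, ε and γ (Cebpa, Cebpb, Cebpd, Cebpe and Cebpg). They were found by matching the RefSeq accession of each array probe to a gene symbol, and each had 1 probe. The 7 are among 20145 genes that could be named on the array, and 6 of them are among the 15202 that passed a filter on dim signals. Spib did not pass, with no array above a log2 intensity of 5.68 where 6.5 was required.

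PU.1 belongs to the ETS family and binds purine-rich DNA around a GGAA core, often near growth factor receptor genes of macrophages and granulocytes. C/EBP proteins bind as dimers through a basic leucine zipper. C/EBPα is required for granulocyte-monocyte progenitors, C/EBPβ and C/EBPδ respond to inflammatory signals, C/EBPε acts late in granulocyte maturation, and C/EBPγ has no activation domain of its own and pairs with the others. RUNX1 is a known activator of Spi1 in blood development, and RUNX1-ETO, the fusion protein of t(8;21) leukaemia, joins the DNA-binding part of RUNX1 to the co-repressor ETO.

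RNA was hybridised in 1 colour to Agilent mouse arrays from 4 cell types derived from a single mouse embryonic stem cell line, which carries human RUNX1-ETO under a tetracycline-responsive promoter while its own Runx1 genes are intact. These were haemogenic endothelium (HE, sorted as KIT+ Tie2+ CD41-), the next stage towards blood (HE2, KIT+ Tie2+ CD41+), CD41+KIT+Tie2- progenitors, and myeloid progenitors grown from KIT+CD41+ cells of the blast culture in expansion medium with cytokines. Each was compared with and without doxycycline (Dox) at 0.1 μg per ml, which was given from day 1 of blast culture to day 2 for the first 3 cell types and for 12 h for the myeloid progenitors. There were 3 arrays per group, but 2 each of uninduced and induced CD41+KIT+Tie2- progenitors, and 1 additional array of uninduced progenitors that is a technical replicate by its title and has the number 3 in another label. That array is given beside the others and was not in the fit. Array 3 of the induced myeloid progenitors is a biological replicate by its title and a technical one by another label, and it was kept in the fit. The strain is given as C57BL/6, controls carried the same transgene without Dox, and Dox itself was not tested on cells without it. Since all cells come from 1 line, P values measure only the spread between cultures or sorts of that line.

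Between 48.8 and 78.4% of the spots on an array stood well above background. The probe for Runx1t1, the mouse gene for ETO, was higher on all induced than on all uninduced arrays at every stage, with log2 changes of 1.24 (HE), 2.08 (HE2), 3.96 (CD41+KIT+Tie2- progenitors) and 2.06 (myeloid progenitors). In HE this change was not called (limma, adjusted P = 0.0155). With Dox, the group means of the Runx1t1 probe lay close together, between 11.67 (progenitors) and 12.06 (myeloid progenitors). Without Dox they lay between 7.71 (progenitors) and 10.81 (HE). The sizes of these changes thus differ mostly with the uninduced level and do not rank the strength of induction. Runx1 itself was called in none of the 4 comparisons with Dox, with changes of 0.75, -0.29, -0.11 and -0.19. All 6 myeloid progenitor arrays, induced progenitor array 2 and the additional array were on slide 3, scanned on another day, and the other 15 arrays on slides 1 and 2. In the fit, uninduced progenitors and uninduced myeloid progenitors thus shared no slide or scan day. For every gene, slide and stage cannot be told apart in the step between them. A block for slide or scan day ties slide 3 to the rest only through induced progenitor array 2.

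RefSeq promoter sequences of GRCm38.p6 were at hand for 4 of the 7 genes, Spib, Cebpa, Cebpb and Cebpg. The 250 bases before the start are shown for Cebpb, which was among the genes that moved with both stage and Dox, and for Cebpg, for which no change was called. Cebpb lies on the plus strand at chr2:167688665-167688914 and Cebpg on the minus strand at chr7:35056567-35056816, both printed 5′ to 3′ and in lower case, since none of the motifs searched was found.
Cebpb: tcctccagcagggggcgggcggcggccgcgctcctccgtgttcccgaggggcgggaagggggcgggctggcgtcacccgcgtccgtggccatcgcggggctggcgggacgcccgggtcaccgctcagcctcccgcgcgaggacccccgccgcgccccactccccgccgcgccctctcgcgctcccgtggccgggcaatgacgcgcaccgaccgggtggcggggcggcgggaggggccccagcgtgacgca
Cebpg: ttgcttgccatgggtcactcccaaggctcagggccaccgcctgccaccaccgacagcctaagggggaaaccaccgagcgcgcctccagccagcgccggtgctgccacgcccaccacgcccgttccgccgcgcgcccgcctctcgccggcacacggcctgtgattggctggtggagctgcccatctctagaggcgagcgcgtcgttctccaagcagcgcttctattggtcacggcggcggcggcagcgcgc
Guanine and cytosine made up 81.6% of the bases for Cebpb and 70.8% for Cebpg, against a median of 52.4% over 32841 promoters. On either strand, the RUNX motifs TGTGGT and TGCGGT occurred in 14 and 5.1% of all promoters of this length, the PU.1 motifs GAGGAAGT and GAGGAA, of which the first contains the second, in 2.44 and 23.3%, and the C/EBP motifs TTGCGCAA and TTGCNNAAT in 0.164 and 2.11%. None of these letters occurred in the windows of Spib, Cebpa, Cebpb or Cebpg. Only exact letters within 250 bases were searched. Their absence therefore says nothing on variants of the motifs, on sites elsewhere or on binding to these genes.

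Without Dox, Spi1, Cebpb and Cebpe were upregulated from HE to HE2, Spi1, Cebpa and Cebpe from HE2 to CD41+KIT+Tie2- progenitors, and Spi1 and Cebpe were downregulated from these to myeloid progenitors. With Dox, Cebpd was called lower in HE, Spi1 and Cebpb in HE2, and Spi1 and Cebpe in progenitors, and no member was called higher at any stage. Here and below, a rise or fall with Dox means a level above or below that of uninduced cells of the same type. It does not mean a change followed over time in the same cells. Calls required a limma P of 0.001 or less before adjustment together with a 2-fold change, and the adjusted P values given beside them are those of Benjamini and Hochberg over all genes tested. The members called with Dox, all lower, numbered 1 of 6 in HE, where 7.09% of all genes were called and 2.39% were called lower. They numbered 2 in HE2 (7.22% of all genes called, 2.05% lower), 2 among the progenitors (3.73 and 0.704%) and 0 among the myeloid progenitors (6.31 and 1.18%). In myeloid progenitors, 3 of the 6 had an unadjusted P under 0.05 by limma, as did 25.4% of all genes, and 2 were called, as were 7.67% of all genes, when an adjusted P of 0.05 was used in place of the unadjusted one. Between stages without Dox, 3 members were called higher from HE to HE2, against 5.07% of all genes called and 2.39% called higher, and 3 from HE2 to progenitors (5.39 and 1.78%), and 2 were called lower from progenitors to myeloid progenitors (13.9% called, 6.93% lower). With Dox, 2 were higher in the first step (3.10% called, 1.62% higher), 2 higher in the second (7.36 and 2.02%) and 1 lower in the last (7.37 and 2.51%).

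**Figure D1:**
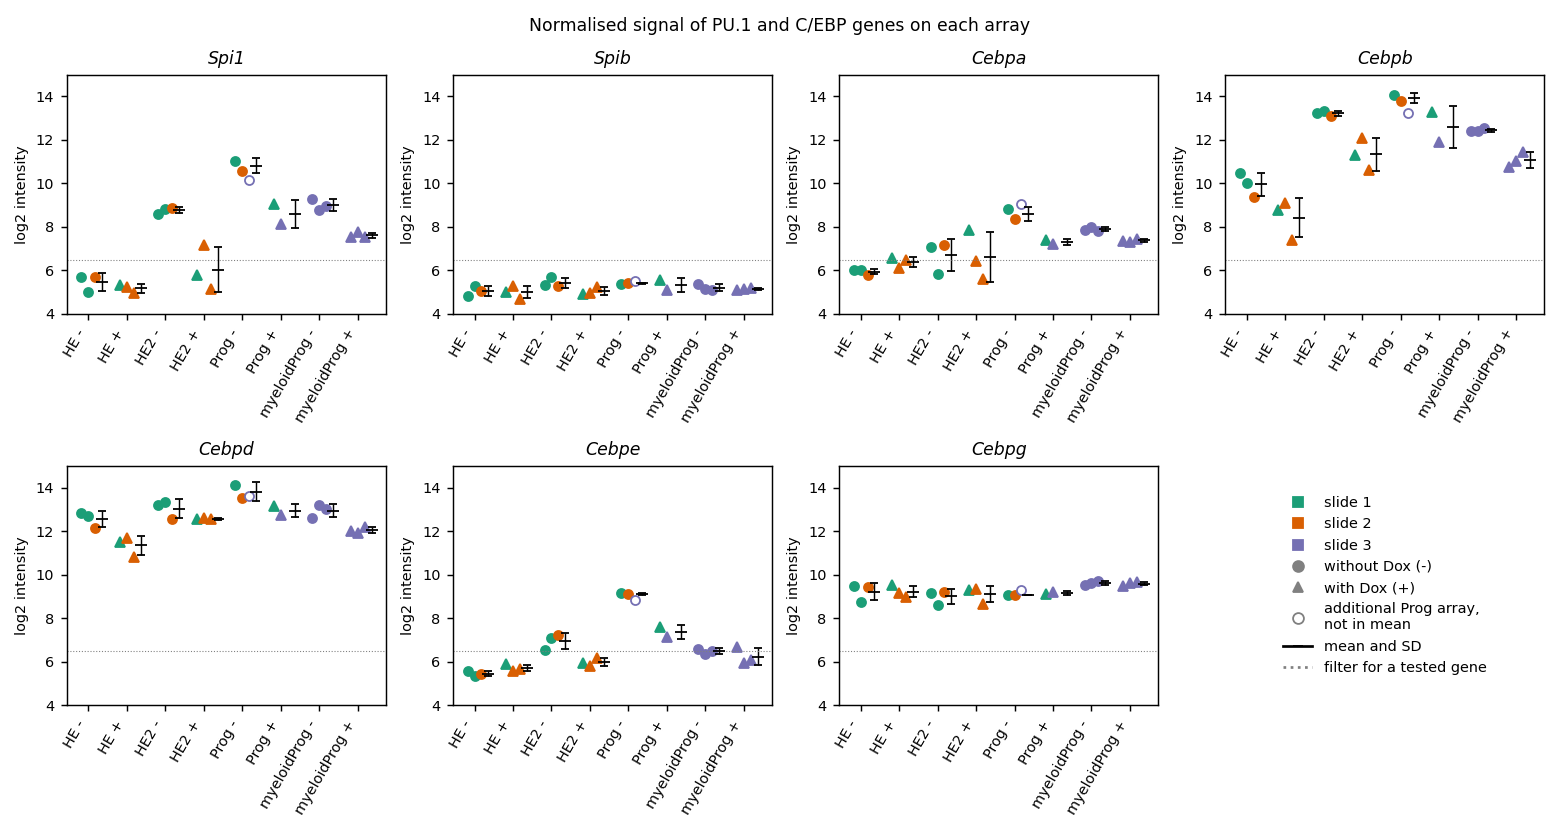
Normalised log2 intensity (vertical axis) of the 7 genes on each array, by cell type without (-, circles) and with Dox (+, triangles), coloured by slide, with group means and SD as black bars and the filter of 6.5 as a dotted line, and the additional array, not in the mean, as an open circle. Spi1 lies between 8.60 and 8.88 on the uninduced HE2 arrays and between 5.14 and 7.16 on the induced ones, Spib stays under the line on every array, and Cebpg lies between 8.61 and 9.69 throughout.

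Spi1 rose towards progenitors and was lower with Dox from HE2 on. In HE, its log2 signal was 5.71, 5.01 and 5.68 without Dox and 5.32, 5.25 and 4.94 with Dox. Here it was near background, and it was well above it on 2 of 3 uninduced and 1 of 3 induced arrays. In HE2 the values were 8.60, 8.81 and 8.88 without Dox and 5.79, 7.16 and 5.14 with Dox, where 2 of 3 arrays were well above background. All induced arrays thus lay below all uninduced ones, and induced array 2 was the highest of the 3. Without Dox Spi1 rose from HE to HE2 by 3.29 on the log2 scale (SE 0.37, adjusted P = 1.26e-05), while with Dox the change was 0.86 (SE 0.37, adjusted P = 0.208) and the groups overlapped. The change with Dox was -0.30 in HE (SE 0.37, 95% interval -1.07 to 0.47) and -2.73 in HE2 (SE 0.37, adjusted P = 5.42e-05), or 6.65-fold lower. Within slides 1 and 2 the change in HE2 was -2.92 and -2.73, and the step from HE to HE2 without Dox 3.34 and 3.20. The difference between the 2 responses to Dox was itself called, at -2.44 (SE 0.52, adjusted P = 0.0297), in a test where 1.34% of genes were called.

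In CD41+KIT+Tie2- progenitors, Spi1 reached its highest values of the series, with 11.05 and 10.58 without Dox and 10.14 on the additional array. With Dox the values were 9.05 and 8.13, again lower on both arrays. From HE2 to progenitors Spi1 rose by 2.05 without Dox (SE 0.41, adjusted P = 0.00277) and by 2.56 with Dox (SE 0.41, adjusted P = 0.000327). Induction was followed by a fall in Spi1 of the later cells too, with a log2 change of -2.23 in progenitors (SE 0.45, adjusted P = 0.00505), which differed from that in HE2 by 0.51 (95% interval -0.71 to 1.72). The call in progenitors was lost without uninduced array 1 (log2 change of Spi1 -1.99), without induced array 2 (-1.77) and with the slide as a block (-1.74). Within slide 1 and within slide 3 the changes were -2.0 and -2.01, but each compares 1 array with 1, and the uninduced one on slide 3 was the additional array, so no test is drawn from them. From HE2 to progenitors without Dox, Spi1 lost its call without uninduced progenitor array 1 (1.82) and when arrays were scaled to their 75th percentile (2.17, limma, adjusted P = 0.134).

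In myeloid progenitors Spi1 was 9.29, 8.77 and 8.94 without Dox and 7.53, 7.75 and 7.56 after 12 h of Dox. All 3 induced arrays were lower than all uninduced ones. The log2 change was -1.39 (SE 0.37, 2.62-fold lower), with an unadjusted P of 0.00135, just above the threshold, and an adjusted P of 0.0151 (limma). Within slide 3 alone, which held all 6 arrays, the same change was called (limma, adjusted P = 0.00118). Without induced array 3 it was -1.36 and not called, and those of Cebpb and Cebpd were -1.55 and -0.98. From progenitors to myeloid progenitors Spi1 fell by 1.81 without Dox (SE 0.41, adjusted P = 0.00255) and the change with Dox was -0.98 (SE 0.41, adjusted P = 0.110). The former rests wholly on arrays of different slides and scan days. It was -0.86 with the slide as a block (limma, adjusted P = 0.699) and -0.89 with the scan day as a block, neither of which was called. Both blocks rest for slide 3 on induced progenitor array 2, the only fitted array there not of myeloid progenitors. They therefore do not give a change of this step freed from the slide. Within slide 3, against the additional array alone, the change without Dox was -1.14. The call was also lost when either uninduced progenitor array, or uninduced myeloid progenitor array 2 or 3, was left out (log2 changes of Spi1 between -2.05 and -1.58). Slide and stage cannot be told apart for the step without Dox.

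Ordered by mean, the level of Spi1 went from induced HE (5.17) over uninduced HE (5.47), induced HE2 (6.03), induced myeloid progenitors (7.61), induced progenitors (8.59), uninduced HE2 (8.76) and uninduced myeloid progenitors (9.0) to uninduced progenitors (10.81). Only induced HE2 and induced myeloid progenitors (limma, adjusted P = 0.00234) and the last pair (adjusted P = 0.00255) differed between neighbours at an adjusted P under 0.05. In neither pair did the groups share a slide or scan day in the fit, so slide and stage cannot be told apart. The place of both myeloid progenitor groups in this order has the same limit against every other cell group but induced progenitors.

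Among the arrays in the fit, Cebpb was lower on the induced ones at every stage and was called in HE2. It was 10.46, 10.02 and 9.39 in uninduced HE and 8.78, 9.09 and 7.41 in induced HE, and in HE2 it was 13.23, 13.34 and 13.09 without Dox and 11.29, 12.10 and 10.61 with Dox. In both cell types every induced array was below every uninduced one. Progenitors had 14.07 and 13.76 without Dox (13.23 on the additional array) and 13.29 and 11.91 with Dox, and myeloid progenitors 12.39, 12.40 and 12.52 without and 10.75, 11.01 and 11.46 with Dox. The additional uninduced progenitor array thus lay below induced progenitor array 1. The change with Dox was called in HE2, at -1.88 (SE 0.43, adjusted P = 0.00485, 3.69-fold lower). It was of like size but not called in HE (-1.53, adjusted P = 0.0195), progenitors (-1.32, adjusted P = 0.164) and myeloid progenitors (-1.36, adjusted P = 0.0413). None of the 4 differences tested between these responses was called, and that between HE2 and HE was -0.35 (95% interval -1.63 to 0.92). The call in HE2 was lost when any 1 of 5 of its 6 arrays was left out, all but induced array 2, with log2 changes of Cebpb between -1.95 and -1.52, and within slides 1 and 2 the changes were -1.99 and -1.73.

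From HE to HE2, Cebpb rose both without and with Dox. The log2 change was 3.26 without Dox (SE 0.43, adjusted P = 7.70e-05, 9.59-fold) and 2.91 with Dox (SE 0.43, adjusted P = 0.000392, 7.52-fold). In both cases the HE2 arrays lay above all HE arrays, also within each slide, where the changes were 3.04 and 3.70 without Dox and 2.52 and 3.11 with it. From HE2 to progenitors the changes were 0.70 and 1.26 and from these to myeloid progenitors -1.48 and -1.52, without and with Dox, and none was called.

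Cebpd was the member called with Dox in HE. Its signal there was 12.83, 12.71 and 12.13 without Dox and 11.51, 11.68 and 10.83 with Dox, a log2 change of -1.22 (SE 0.26, adjusted P = 0.00325, 2.32-fold lower) with no overlap. Within slides 1 and 2 this change was -1.26 and -0.88, and without uninduced HE array 1 or 2, or induced HE array 3, the call was lost, at -1.08, -1.14 and -0.96. In HE2 the 3 induced arrays, at 12.54, 12.61 and 12.55, overlapped the uninduced ones, at 13.22, 13.33 and 12.55 (log2 change -0.47, adjusted P = 0.254). The rise from HE to HE2 was called with Dox, at 1.23 (SE 0.26, adjusted P = 0.00840), and not without, at 0.48 (SE 0.26, adjusted P = 0.309). The call with Dox was lost without induced HE array 3 (0.97), and within slides 1 and 2 the change was 1.03 and 1.32. The difference between the steps was not called (0.75, 95% interval -0.03 to 1.53). In progenitors Cebpd was 14.11 and 13.51 without Dox (13.59 on the additional array) and 13.15 and 12.73 with it, and in myeloid progenitors 12.62, 13.21 and 13.00 without and 12.01, 11.91 and 12.21 with it. The induced arrays were lower in both, by 0.87 and 0.90 on average, changes of less than 2-fold.

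Cebpe was highest in uninduced progenitors. Its signal was 9.16 and 9.09 in uninduced progenitors and 8.85 on the additional array, and on no other array was it above 7.60. In HE it was 5.56, 5.35 and 5.43 without Dox and 5.88, 5.59 and 5.68 with Dox, well above background on 2 of 3 arrays of each group. In HE2 it was 6.55, 7.07 and 7.25 without Dox and 5.96, 5.81 and 6.19 with Dox. The groups did not overlap, and the change of -0.97 (SE 0.21, adjusted P = 0.00297) had a low P and was short of 2-fold. In progenitors with Dox it was 7.60 and 7.15, lower than without Dox by 1.75 on the log2 scale (SE 0.25, adjusted P = 0.000295, 3.37-fold). The changes within slides 1 and 3 were -1.56 and -1.70, each from 1 array a group. In myeloid progenitors the groups overlapped, with 6.60, 6.34 and 6.51 without Dox and 6.66, 5.95 and 6.09 with it (log2 change -0.25, adjusted P = 0.527).

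For Cebpe the responses to Dox differed between stages. The difference between HE2 and HE was -1.24 (SE 0.29, adjusted P = 0.0531) and that between myeloid progenitors and progenitors was 1.5 (SE 0.33, adjusted P = 0.0277, where 1.50% of genes were called). For the second, Cebpe was at only 6.34 to 6.60 in uninduced myeloid progenitors, near the filter of 6.5. In uninduced progenitors it was at 9.09 and 9.16. The part of these levels in the second difference was not tested. Both differences were called by the unadjusted P. The first was lost without any 1 of 7 of the 12 arrays. The second was lost without uninduced progenitor array 1 or induced array 2, and it was 1.26 with the slide as a block (limma, adjusted P = 0.222). Between progenitors and HE2, where 0.645% of genes were called, and between myeloid progenitors and HE, where 4.72% were, 0 of the 6 members were called in a test of the difference, and at an unadjusted P under 0.05 there were 1 each, Cebpe (-0.79, where 8.10% of all genes reached that P) and Spi1 (-1.09, where 16.3% did).

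Between stages Cebpe rose by 1.51 from HE to HE2 without Dox (SE 0.21, adjusted P = 0.000118), and the change was 0.27 with Dox (adjusted P = 0.555). It rose by 2.17 from HE2 to progenitors without Dox (SE 0.23, adjusted P = 6.82e-06) and by 1.39 with Dox (SE 0.23, adjusted P = 0.000456). To myeloid progenitors it fell by 2.64 without Dox (SE 0.23, adjusted P = 2.06e-07, 6.25-fold) and by 1.14 with Dox (SE 0.23, adjusted P = 0.00208). Within slide 3, against 1 progenitor array each, of which the uninduced one was the additional array, these last values were -2.37 and -0.91, and no test is drawn from them. Slide and stage cannot be told apart for the fall without Dox. The fall with Dox was no longer called without induced progenitor array 1 (-0.91) or induced myeloid progenitor array 2 (-0.998).

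Cebpa varied between arrays of the same group in HE2. It was 7.08, 5.85 and 7.15 without Dox and 7.85, 6.42 and 5.58 with Dox, and the change was -0.07 (95% interval -0.92 to 0.77) with 1.38 within slide 1 and -1.15 within slide 2, of opposite direction and not called in either. In HE it was 6.02, 6.00 and 5.80 without and 6.56, 6.12 and 6.48 with Dox, the induced arrays all higher by a small margin (0.45, adjusted P = 0.555). Progenitors had 8.82 and 8.38 without Dox, 9.04 on the additional array, and 7.39 and 7.22 with Dox. Here both induced arrays were lower, with a change of -1.29 (SE 0.49, adjusted P = 0.145, 2.45-fold) that was not called. It was -1.82 within slide 3, where 1 induced array was compared with the additional one. In myeloid progenitors it was 7.88, 7.99 and 7.83 without and 7.37, 7.30 and 7.47 with Dox, all 3 lower by 0.52 on average (adjusted P = 0.487).

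Cebpa was upregulated in one step, from HE2 to progenitors without Dox, by 1.91 (SE 0.45, adjusted P = 0.00994, 3.75-fold). The corresponding change with Dox was 0.69 (SE 0.45, adjusted P = 0.354), and the difference between the 2 was not called (-1.22, 95% interval -2.55 to 0.12). The rise was 2.35 within slide 1 and 1.23 within slide 2. It was no longer called without uninduced HE2 array 2 (1.48) or without uninduced progenitor array 1 (1.69) or 2 (2.12).

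Cebpg, the member without an activation domain, lay between 8.61 and 9.69 on all arrays. Its changes with Dox were 0.01, 0.10, 0.07 and -0.02 from HE to myeloid progenitors, and their 95% intervals reached no further than -0.49 and 0.64. Its largest step was to myeloid progenitors, 0.52 without Dox (adjusted P = 0.113) and 0.43 with it. Spib, which encodes the relative of PU.1 known from B cells and plasmacytoid dendritic cells, was listed between 4.71 and 5.68, and was well above background on 3 of 23 arrays, 1 each of uninduced HE, HE2 and progenitors. No fold is given for it.

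**Figure D2:**
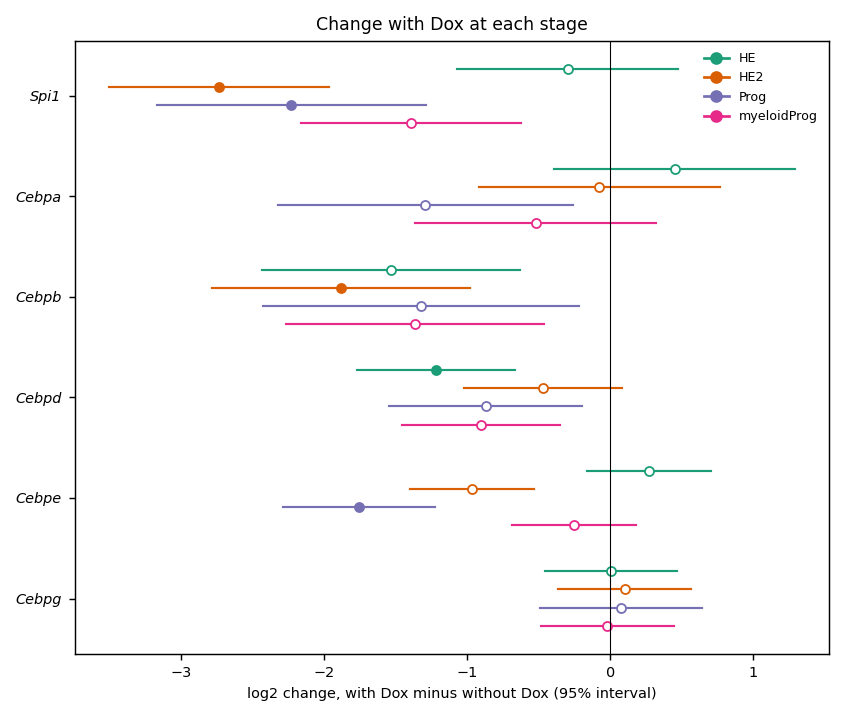
Log2 change with Dox (horizontal axis, induced minus uninduced) of the 6 tested genes in the 4 cell types, with 95% intervals from limma as lines and filled points for called changes. The 5 filled points all lie left of zero, Cebpb lies between -1.88 and -1.32 in every cell type, and the 4 values of Cebpg lie between -0.02 and 0.10.

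By position of the arrays alone, 2 of the 6 members lay lower on all induced than on all uninduced arrays in HE, as did 11.0% of all genes tested. The same held for 3 members in HE2 (15.2%), 5 in the progenitors with 2 arrays a group (26.4%) and 4 in the myeloid progenitors (22.7%). In the other direction, 2 members lay higher on all induced arrays in HE, Cebpa and Cebpe, against 14.2% of all genes, 0 in HE2 (17.0%), 1 in the progenitors, Cebpg (22.6%), and 0 in the myeloid progenitors (23.9%). The additional array is not in these counts. It lay below induced progenitor array 1 for Cebpb (13.23 against 13.29) and above both induced arrays for Cebpg (9.31 against 9.11 and 9.21). From HE to myeloid progenitors, the median change with Dox over the 6 was -0.14, -0.72, -1.31 and -0.71, where the medians of all genes lay between -0.04 and -0.01. In these bulk arrays, fewer cells that express a gene and less RNA per cell cannot be told apart.

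**Figure D3:**
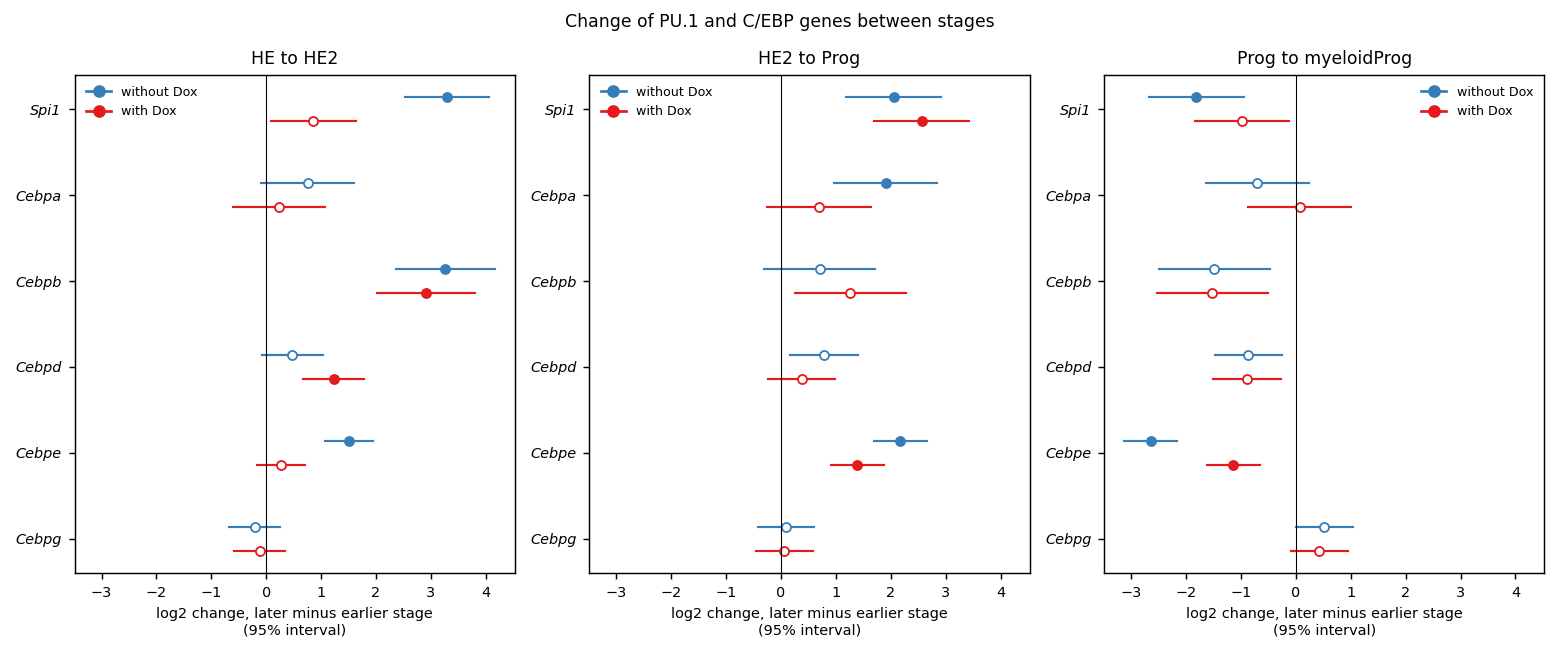
Log2 change (horizontal axis, later minus earlier stage) of the 6 tested genes over each of 3 steps without Dox (blue) and with Dox (red), with 95% intervals from limma and filled points for called changes. From HE to HE2, Spi1 changed by 3.29 without and 0.86 with Dox, whereas Cebpb changed by 3.26 and 2.91.

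Marker genes of other cell types moved with several of these results. The summed signal of 7 endothelial markers, all tested, was 15.44 to 15.94 on uninduced and 16.59 to 16.81 on induced HE2 arrays, and 14.49 to 14.55 against 15.29 to 15.59 in progenitors. Of these 7, 2 were called higher with Dox in each. The summed signal of 6 erythroid markers was 16.22 to 16.68 against 18.28 to 18.53 in HE2 and 17.40 to 17.65 against 18.55 to 18.96 in progenitors, with 3 of 6 called higher with Dox in each. For 6 neutrophil markers it was 12.99 to 13.81 against 11.67 to 12.23 in HE2, and S100a8 was not well above background on any of these 6 arrays. Of the 5 neutrophil markers tested, 2 were called lower there. The 4 mesenchymal markers went from 13.88 to 15.22 down to 11.96 to 12.47 in HE2, with 3 of 4 called lower. In HE, where Cebpd fell, they were at 15.46 to 16.60 without and 14.54 to 14.65 with Dox, with 3 of 4 called lower, and the erythroid markers at 15.02 to 15.41 and 17.35 to 18.31, with 2 of 6 called higher. In myeloid progenitors the endothelial markers were at 13.41 to 13.84 without and 15.48 to 15.74 with Dox, with 5 of 7 called higher, and all 5 megakaryocyte markers were called lower, at a summed 15.11 to 15.43 against 13.47 to 13.65. From progenitors to myeloid progenitors without Dox, all 6 erythroid and all 5 megakaryocyte markers rose, as did 3 of 4 tested macrophage markers, and the neutrophil markers went from 14.86 to 15.25 down to 12.90 to 13.95, so that the cells labelled myeloid progenitors also held erythroid and megakaryocytic transcripts. In that step slide and stage cannot be told apart. Of all genes, 4.70, 5.17, 3.03 and 5.13% were called higher with Dox from HE to myeloid progenitors, and 2.39, 2.05, 0.704 and 1.18% lower. From progenitors to myeloid progenitors without Dox, 13.9% of all genes were called, with 6.93% called lower. The part of these markers in the changes of Spi1 and the C/EBP genes was not tested.

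Of 34 myeloid genes listed as known targets of PU.1 or C/EBP, 29 could be tested. Without Dox, 13 rose and 0 fell from HE to HE2, with a median of 1.16 against 0.03 for all genes. Among them were Tyrobp (4.79) and Fcer1g (3.91), adaptors of activating receptors, the kinase gene Btk (3.33) and Mpo (3.34), the peroxidase of neutrophil granules. From HE2 to progenitors 11 rose and 0 fell (median 1.09 against -0.02), led by Ncf1 (2.98), a subunit of the phagocyte NADPH oxidase, Cd14 (2.78) and Tyrobp (2.68). From progenitors to myeloid progenitors 5 rose and 2 fell (median 0.26 against -0.12), where 13.9% of all genes were called and 6.93% were called lower. Csf1r, the receptor of macrophage colony-stimulating factor, rose by 2.17 and the Fc receptor gene Fcgr1 by 2.05, and the granule genes Mpo (-1.86) and Prtn3 (-1.63) were lower. Slide and stage cannot be told apart in this step. With Dox the counts were 8 higher and 0 lower, 12 and 0, and 6 and 1 over the 3 steps, where 1.62, 2.02 and 4.86% of all genes were called higher. Without Dox the shares of all genes called higher in the first 2 steps were 2.39 and 1.78%.

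From HE to myeloid progenitors, 3, 1, 0 and 0 of these 29 targets rose with Dox and 1, 6, 4 and 2 fell, with medians of -0.05, -0.28, -0.55 and -0.40. Of all genes, 4.70, 5.17, 3.03 and 5.13% were called higher in these comparisons and 2.39, 2.05, 0.704 and 1.18% lower. Ncf1 was called lower in the last 3, with changes of -1.97, -1.94 and -2.16, and its arrays did not overlap there, with 8.14 to 8.88 without and 6.09 to 6.98 with Dox in HE2, for example. Fcer1g was called lower in HE (-1.53), HE2 (-2.96) and progenitors (-2.01). Cd14 (-2.30), Ltf, the gene of lactoferrin (-1.93), and Csf1r (-1.77) were also called lower in HE2. Another oxidase subunit gene, Ncf4, rose by 1.89 in HE and, singled out after its value was seen, by 1.68 in HE2, where Ncf1 fell. In HE, Tyrobp also rose, by 2.04, although its induced HE arrays, at 8.45 to 9.30, stayed below all HE2 arrays. In progenitors Prtn3 fell by 2.32. The response of Tyrobp differed between HE2 and HE by -3.07 (adjusted P = 0.00862) and that of Ncf1 by -2.26 (adjusted P = 0.00641).

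**Figure D4:**
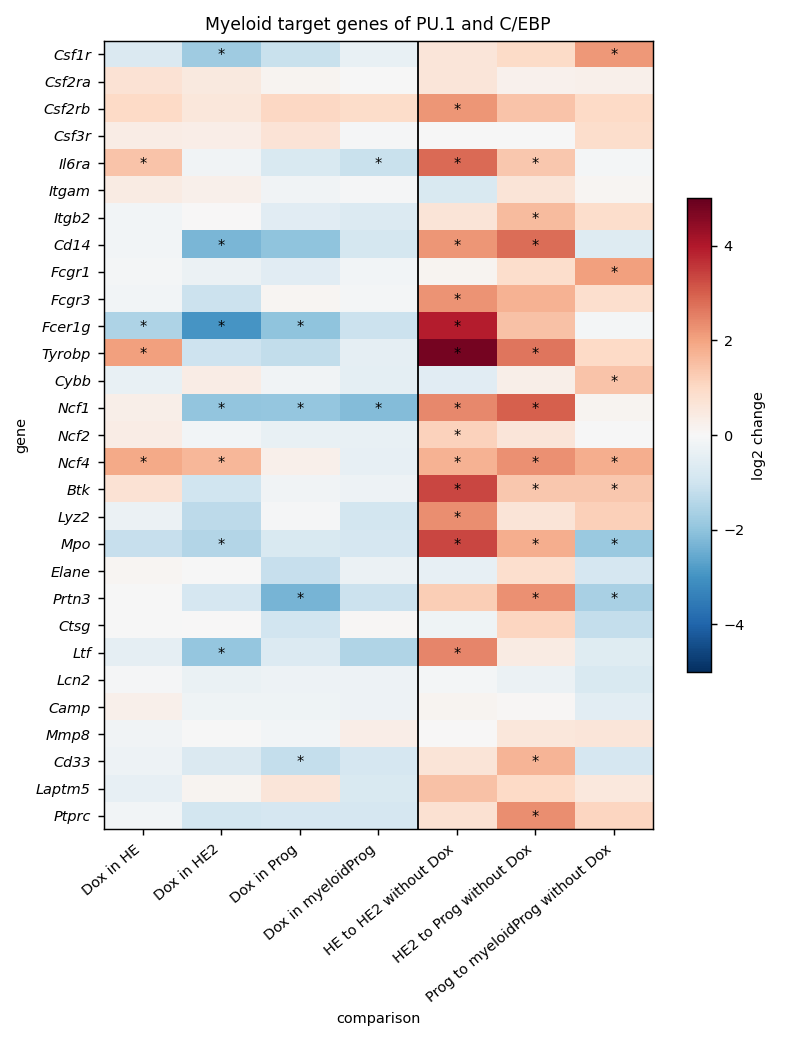
Log2 change (colour scale) of the 29 tested target genes of PU.1 and C/EBP (rows) with Dox in the 4 cell types (left of the line) and over the 3 steps without Dox (right), with called changes marked by a star. Ncf1 is blue with a star for every cell type but HE, and the first 2 steps hold 13 and 11 stars, all on red.

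Of 17 genes listed as partners, regulators or antagonists of PU.1, 15 were tested, and those called with Dox all rose, 1, 3, 1 and 4 of them from HE to myeloid progenitors, against 4.70, 5.17, 3.03 and 5.13% of all genes. Fli1, another ETS factor, rose by 1.41 (HE2), 1.58 (progenitors) and 1.29 (myeloid progenitors), and its induced arrays were above the uninduced ones in each. Gata1, the erythroid factor that binds and opposes PU.1, rose by 2.07 in HE2, where it was 10.38 to 11.25 without and 12.54 to 13.28 with Dox. Gfi1, a repressor that acts on Spi1, rose by 3.22 in myeloid progenitors, from 8.57 to 9.57 without to 11.80 to 13.47 with Dox, and Erg rose by 2.08 there. Irf8, a partner of PU.1 in monocytes, rose by 1.52 in HE, and its response differed between myeloid progenitors and HE by -2.48 (adjusted P = 0.000273). Without Dox, Irf8 rose over all 3 steps, by 1.00, 1.73 and 2.22, the last being a step in which Spi1 fell. Over these steps 5, 2 and 2 of the 15 rose and 0, 1 and 3 fell without Dox, and with Dox 3, 2 and 1 rose and 0, 0 and 2 fell. Of all genes, 5.07, 5.39 and 13.9% were called in either direction over the steps without Dox, and 3.10, 7.36 and 7.37% with Dox. The medians with Dox were 0.13, 0.62, 0.38 and 0.25 from HE to myeloid progenitors.

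All 11 partners, inhibitors and relatives of the C/EBP factors were tested. From HE to myeloid progenitors, 2, 0, 0 and 1 rose with Dox and 2, 2, 0 and 0 fell, with medians of -0.23, 0.22, 0.02 and 0.37, to be read against the same shares of all genes. Trib2, whose protein targets C/EBPα for degradation, rose by 2.03 in HE and its relative Trib1 fell by 1.39. Batf3, a leucine zipper factor, was lower in HE (-2.94) and HE2 (-1.78). Trib3 rose to myeloid progenitors by 3.48 without and 3.83 with Dox. In the steps without Dox, 1, 0 and 1 of the 11 rose and 0, 0 and 1 fell, and with Dox 0, 0 and 2 rose and 0 fell. The shares of all genes called in either direction were 5.07, 5.39 and 13.9% without Dox and 3.10, 7.36 and 7.37% with Dox.

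Over the 22 arrays, the genes most like Spi1 in their pattern, by Pearson's r among 14919 genes with a value on each array, were Siglecf (0.970), Mamdc2 (0.954) and Fmnl1 (0.952). For Cebpb they were Isoc1 (0.968), F13a1 (0.964) and Rab38 (0.960), and for Cebpe Ms4a3 (0.946), Klrb1c (0.936) and Asxl3 (0.929). Cebpa was most like B3gnt8 (0.889), Prkcd (0.885) and Slc7a11 (0.876), Cebpd like Heatr1 (0.945), Nup155 (0.907) and F5 (0.905), and Cebpg like Atp6v1b2 (0.905), Polb (0.901) and Stx8 (0.887). Among the members, Spi1 and Cebpb had the highest r over all 22 arrays, 0.899, and 0.650 after the group means were subtracted. Spi1 and Cebpe had 0.849 over all arrays and 0.03 after subtraction, and Cebpb and Cebpd 0.882 and 0.682, the highest after subtraction. Cebpg had r between -0.20 and 0.41 with the other 5. These values describe arrays that share groups and slides.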

How the data were processed

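Cy3-labelled RNA was hybridised to 23 Agilent arrays, and the authors deposited the scanner files, with spot and background intensity from Feature Extraction (version 10.7.1.1 per the labels, 10.7.3.1 per the file headers), and a table of log2 values. Starting from the deposited intensity values, the median signal was corrected for median background by normexp with an offset of 16 and quantile normalised with limma 3.58.1 in R 4.3.3. Control spots and outlier spots were left out, and spots of a probe were averaged. Of 55681 probes, 26582 were named through their RefSeq accession (GRCm38.p6 names, no coordinates), giving 20145 genes, of several probes the brightest on average was kept. Genes of at least 6.5 on the log2 scale on at least 1 array were tested.

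One mean per group was fitted to 22 arrays (lmFit and eBayes, 14 residual degrees of freedom). The call rule, a P up to 0.001 before adjustment and 2-fold or more, follows the methods of the study. Differences between responses to Dox were tested as interaction terms. The 7 genes and the gene lists were chosen with earlier results of these data known, so no P value over a list is given. Named were the 7 genes, the 3 genes most like each, Runx1 and Runx1t1, and at most the 5 largest called changes of each list in a comparison. In simulated data for 15202 genes with 200 changed by 1.5 on the log2 scale, the calls recovered 78% (Dox in HE), 78.5% (HE2), 67.5% (progenitors) and 85% (myeloid progenitors). The number of arrays limits the precision.

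In the deposited log2 table, the columns of replicates 2 and 3 of induced HE, HE2 and myeloid progenitors each followed the scanner file of the other, which leaves group means as they are. Which numbers are right cannot be told, so pairing and the replicate block rest on uncertain numbers for these induced groups. The table was used as an alternative only. Alternatives also concerned background correction, scaling, filter, probe choice, threshold, slide, scan day, pairing and single arrays. Comparisons with CD41+KIT+Tie2- progenitors had 2 pairs, too few for pairing to be judged. Of the comparisons with 3 pairs, arrays of the same replicate number deviated together in 1, HE to HE2 without Dox (r between 0.394 and 0.795). All values given are from the fit without pairing unless said otherwise, and the replicate number as a block was an alternative, which changed no call in that comparison.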

Additional observations from a re-analysis of the deposited data

Results flagged for a closer look

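For 2 genes the response to Dox differed between cell types by a test of the difference itself. Spi1 had a log2 change with Dox of -2.73 in HE2 and -0.30 in HE, a difference of -2.44 (limma interaction term, adjusted P = 0.0297). For Cebpe the difference between HE2 and HE was -1.24 (adjusted P = 0.0531), and that between myeloid progenitors and CD41+KIT+Tie2- progenitors 1.5 (adjusted P = 0.0277). Spi1 and Cebpe were near background in HE, and most myeloid progenitor arrays and progenitor arrays lay on different slides.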

How the results depend on the processing

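No change of a called member reversed under any alternative. A replicate block over all 22 arrays changed no call, and left 2 members called with Dox in HE2. With the replicate block and only the groups compared in the fit, the members called with Dox were 0 in HE, 0 in HE2 and 2 in myeloid progenitors, those between stages 1 from HE to HE2 and 1 from HE2 to progenitors with Dox, and 1 without and 0 with Dox to myeloid progenitors, and 0 differed in response between HE and HE2. Of all genes, this called 3.87% with Dox in HE, 1.95% in HE2 and 6.48% in myeloid progenitors. For induced HE, HE2 and myeloid progenitors the numbers of replicates 2 and 3 are uncertain, and so are counts with a replicate block. With only the groups compared and no block, 0 members were called with Dox in HE, 1 in progenitors and 2 in myeloid progenitors, 1, 0 and 0 over the 3 steps with Dox, and 0 for the differences of HE2 from HE and of myeloid progenitors from progenitors, where 4.18, 1.42 and 6.93% of all genes were called with Dox and 1.88, 2.78 and 5.96% over the steps.

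With at least 2-fold alone, 2 were called with Dox in HE, 4 in progenitors, 2 in myeloid progenitors and 2 from progenitors to myeloid progenitors with Dox, and 1 each for the differences of HE from myeloid progenitors and of HE2 from progenitors, while of all genes 9.81, 9.31, 8.72 and 12.4% were called, and 11.7 and 7.91% for the differences. With an adjusted P of 0.05 there were 2 with Dox in HE, 2 in myeloid progenitors, 2 from progenitors to myeloid progenitors with Dox, and 1 for HE2 against HE (8.61, 7.67, 10.3 and 0.875% of all genes). Scaling to the 75th percentile, which moved the median of all genes with Dox to -0.11 (HE2), -0.22 (progenitors) and -0.12 (myeloid progenitors), left 1 with Dox in progenitors, 1 from HE2 to progenitors without Dox, 1 for HE2 against HE and 0 for myeloid progenitors against progenitors. Of all genes, it called 7.32% with Dox in HE2, 3.41% in progenitors and 0.914% for HE2 against HE. It newly called Cebpe with Dox in HE2 (-1.49). From progenitors to myeloid progenitors without Dox it newly called Cebpd (-1.43), while Spi1 lost its call (-1.88). The deposited log2 values and an offset of 50 each gave 1 with Dox in myeloid progenitors, 0 from progenitors to myeloid progenitors with Dox and 1 for HE2 against HE, and no background correction gave 1 with Dox in myeloid progenitors. These 3 settings called 4.79, 4.86 and 6.03% of all genes there.

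The slide as a block and the scan day as a block each gave 1 with Dox in progenitors, 1 without and 0 with Dox from progenitors to myeloid progenitors, and 0 for the difference of these 2 cell types. With Dox in progenitors they called 2.18 and 2.30% of all genes, and to myeloid progenitors without Dox 3.78 and 3.83%, against 13.9% without a block. Both blocks tie slide 3 to the other slides only through induced progenitor array 2. Within single slides, chosen after seeing the data, slide 1 gave 0 with Dox in HE and 0 in progenitors, 1 from HE to HE2 with Dox, 1 from HE2 to progenitors with and 1 without Dox, and 0 for HE2 against HE. Slide 2 gave 0 with Dox in HE and in HE2, 0 from HE to HE2 without and 0 with Dox, 0 from HE2 to progenitors and 0 for HE2 against HE, and slide 3 gave 2 with Dox in myeloid progenitors and 0 from progenitors with Dox. Slides hold 1 or 2 arrays of most groups, and in their comparisons slides 1 and 2 called between 0.0724 and 2.30% of all genes.

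Leaving out single arrays gave between 0 and 2 members with Dox in HE, 1 and 2 in HE2, 1 and 2 in progenitors and 0 in myeloid progenitors. Between stages it gave 3 from HE to HE2 without and between 1 and 2 with Dox, between 1 and 3 from HE2 to progenitors without and 2 with Dox, and between 1 and 2 without and 0 and 1 with Dox to myeloid progenitors. For the differences it gave between 1 and 2 for HE2 against HE and 0 and 1 for myeloid progenitors against progenitors. Of all genes, leaving out single arrays called between 6.23 and 6.76% with Dox in HE and between 5.60 and 7.24% in HE2. For myeloid progenitors the share was between 4.97 and 6.32%, and for HE2 against HE between 0.921 and 1.36%. The causes of these changes in calls were not tested. Signals near background limit the changes of Spi1 and Cebpe in HE.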
